A study of Homo sapiens with 8 samples.

Results

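Interferon response and antigen presentation genes were examined in OVSAHO and KURAMOCHI, established cell lines of ovarian serous carcinoma, after culture with simvastatin or L-778123. The 44 genes were listed by symbol, and each was read from its brightest probe among those that the scanner placed well above background in both replicates of 1 or more of the 4 groups. In this way 43 of the 44 genes were measured, among 16955 genes in all, through 56 of their 57 probes. IFI27, an interferon-inducible mitochondrial protein, matched no probe through the identifiers used here and was not analysed here.

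The 8 one-color arrays formed 4 groups of 2, namely OVSAHO cells with simvastatin, OVSAHO cells with L-778123, KURAMOCHI cells with simvastatin and KURAMOCHI cells with L-778123. Simvastatin inhibits HMG-CoA reductase, the rate-limiting enzyme of the mevalonate pathway, and L-778123 inhibits the farnesyl and geranylgeranyl transferases that attach products of this pathway to proteins. The study aimed to single out genes regulated by simvastatin as against L-778123. No untreated arrays were analysed here, so that a higher level with simvastatin and a lower level with L-778123 cannot be told apart, and the concentrations and times of these cultures are not given in the sources used here. Each line is a single cancer cell line, and the labels do not say whether replicates came from separate cultures, so that the p-values measure only the spread between these arrays.

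The 75th percentile of intensity lay between 324 and 437 on the 8 arrays, 51.8% to 57.5% of 58162 probes were well above background, no spot was saturated, and replicates correlated at 0.9949 to 0.9958. All 9 markers of serous carcinoma were well above background on all 8 arrays. Of 10 immune cell markers with a probe, 3 were well above background on all arrays, PTPRC and CD14 among them, while CD2, MS4A1 and CD163 were so on none. Of 9 fibroblast and endothelial markers, 2 (VWF and CDH5) were well above background on all arrays, while DCN, LUM, PECAM1 and COL1A2 were so on none. VWF, the von Willebrand factor of endothelial cells, was lower with simvastatin in OVSAHO by a log2 difference of -3.30 (limma adjusted p = 2.43e-05), and its contrast differed between lines by -3.15. The summed level of that list was 0.317 to 0.360 times the 75th percentile with simvastatin and 0.922 to 0.980 times with L-778123 in OVSAHO, and 3.02 to 3.10 against 3.80 to 3.94 times in KURAMOCHI. Its part in the values of the members was not tested.

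Interferons bind receptors whose kinases phosphorylate STAT proteins, and a complex of STAT proteins with IRF9 enters the nucleus and binds interferon-stimulated response elements in the promoters of antiviral genes. Interferon gamma acts mainly through STAT homodimers at gamma-activated sites and through IRF1, which also raises the genes of class I antigen presentation. In that pathway the immunoproteasome cuts proteins into peptides, TAP1 and TAP2 carry them into the endoplasmic reticulum, and HLA heavy chains bound to B2M display them at the cell surface.

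Promoter sequences were examined because the members are listed for their response to interferon, although the list was chosen with earlier results of these data known. A larger share of matches to interferon-stimulated response elements in such a list was foreseeable and says nothing about the drugs. RefSeq windows from 250 bases before to 50 bases after the start site (GRCh38.p14) were at hand for 36 of the 44 genes, in 47 windows. An ISRE-type match, TTTCNNTTTC on either strand, lay in 29 of these 47 windows (61.7%) and in 3.57% of all 35116 windows. A GAS-type match, TTCNNNGAA, lay in 13 of the 47 windows (27.7%) and in 7.66% of all windows, and matches of both types overlapped in 4 member windows. No window was at hand for GBP2, HLA-E, IFIT2, IRF7, MX2, OAS2, OASL and TRIM22. Of these, GBP2, IFIT2, OAS2 and OASL were higher with simvastatin in OVSAHO. Stretches from 9 genes are shown with the ISRE-type matches in capitals, written 5′ to 3′ on the strand of the gene, from 3 genes that were higher with simvastatin in OVSAHO (IFI44L, ISG20 and PARP9), from GBP1, which was lower in both lines, and from 5 genes that passed the threshold in neither line.
IFI44L (chr1:78620355-78620404, plus strand): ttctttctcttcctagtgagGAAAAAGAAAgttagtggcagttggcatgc
ISG20 (chr15:88638927-88638976, plus strand): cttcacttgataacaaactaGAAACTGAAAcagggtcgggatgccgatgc
PARP9 (chr3:122564312-122564361, minus strand): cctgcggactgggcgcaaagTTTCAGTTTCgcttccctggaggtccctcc
GBP1 (chr1:89065306-89065355, minus strand): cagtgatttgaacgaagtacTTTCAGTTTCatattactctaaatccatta
ISG15 (chr1:1013364-1013419, plus strand): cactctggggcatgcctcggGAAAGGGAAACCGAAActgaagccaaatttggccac
IFIT1 (chr10:89392487-89392549, plus strand): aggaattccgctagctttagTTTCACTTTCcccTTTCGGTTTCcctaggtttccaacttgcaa
BST2 (chr19:17405725-17405780, minus strand): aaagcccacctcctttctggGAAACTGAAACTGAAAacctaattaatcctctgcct
B2M (chr15:44711353-44711408, plus strand): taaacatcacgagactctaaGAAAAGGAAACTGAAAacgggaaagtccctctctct
TAP1 (chr6:32853803-32853858, minus strand): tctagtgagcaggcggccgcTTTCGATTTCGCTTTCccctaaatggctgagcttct
The match lay in windows of called and of uncalled genes. Counts this small can neither show nor exclude a relation to the drug contrast. Among the members with a window, it was present in 6 of 10 that were higher with simvastatin in OVSAHO, in 2 of 2 that were lower and in 16 of 23 that were not called. Windows of OAS1, IRF9, SP110 and XAF1, all higher in OVSAHO, held no ISRE-type match. Neither did those of HLA-B, HLA-C, PSMB9, STAT2, UBE2L6, IRF1 and IFI35, which were not called in OVSAHO. Genes with 2 matches in 1 window included IFI44L, which was higher in OVSAHO, and B2M, TAP1, IFIT1 and BST2, which were not called.

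Levels are log2 signals from which the array's own 75th percentile was subtracted, and a gene was called where it differed 2-fold or more with a limma adjusted p under 0.05. In OVSAHO, 14 of 42 members measured were higher with simvastatin than with L-778123 and 2 were lower. Over all 16281 genes measured in this line, 5.68% were higher and 5.88% lower. The median log2 difference of the members was 0.52, against 0.0049 for all genes, and 36 of the 42 differences were above 0. In KURAMOCHI, 0 of 42 members were higher and 1 was lower, where 2.38% of 15828 genes were higher and 2.97% lower. The median of the members there was 0.29, against 0.0064 for all genes, with 33 of 42 above 0. At an unadjusted p under 0.05 from limma, 20 members lay above 0 in KURAMOCHI, 0 of them by 2-fold, and the two-way analysis of variance of the methods also called 0 higher. The share of all genes at an unadjusted p was not counted, so such counts, here and below, cannot be read as an excess.

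With no fold threshold, 27 members were higher and 2 lower in OVSAHO at an adjusted p under 0.05 from limma, where 27.1% of all genes were higher and 28.3% lower. In KURAMOCHI the same threshold gave 16 higher and 3 lower, where 17.9% and 19.3% of all genes were. The members therefore lay mostly on the side of simvastatin in both lines, by less in KURAMOCHI, and the 2-fold threshold was passed upwards in OVSAHO alone. Whether single members differed between lines was tested on the difference of the contrasts, given after the drug contrasts.

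**Figure D1:**
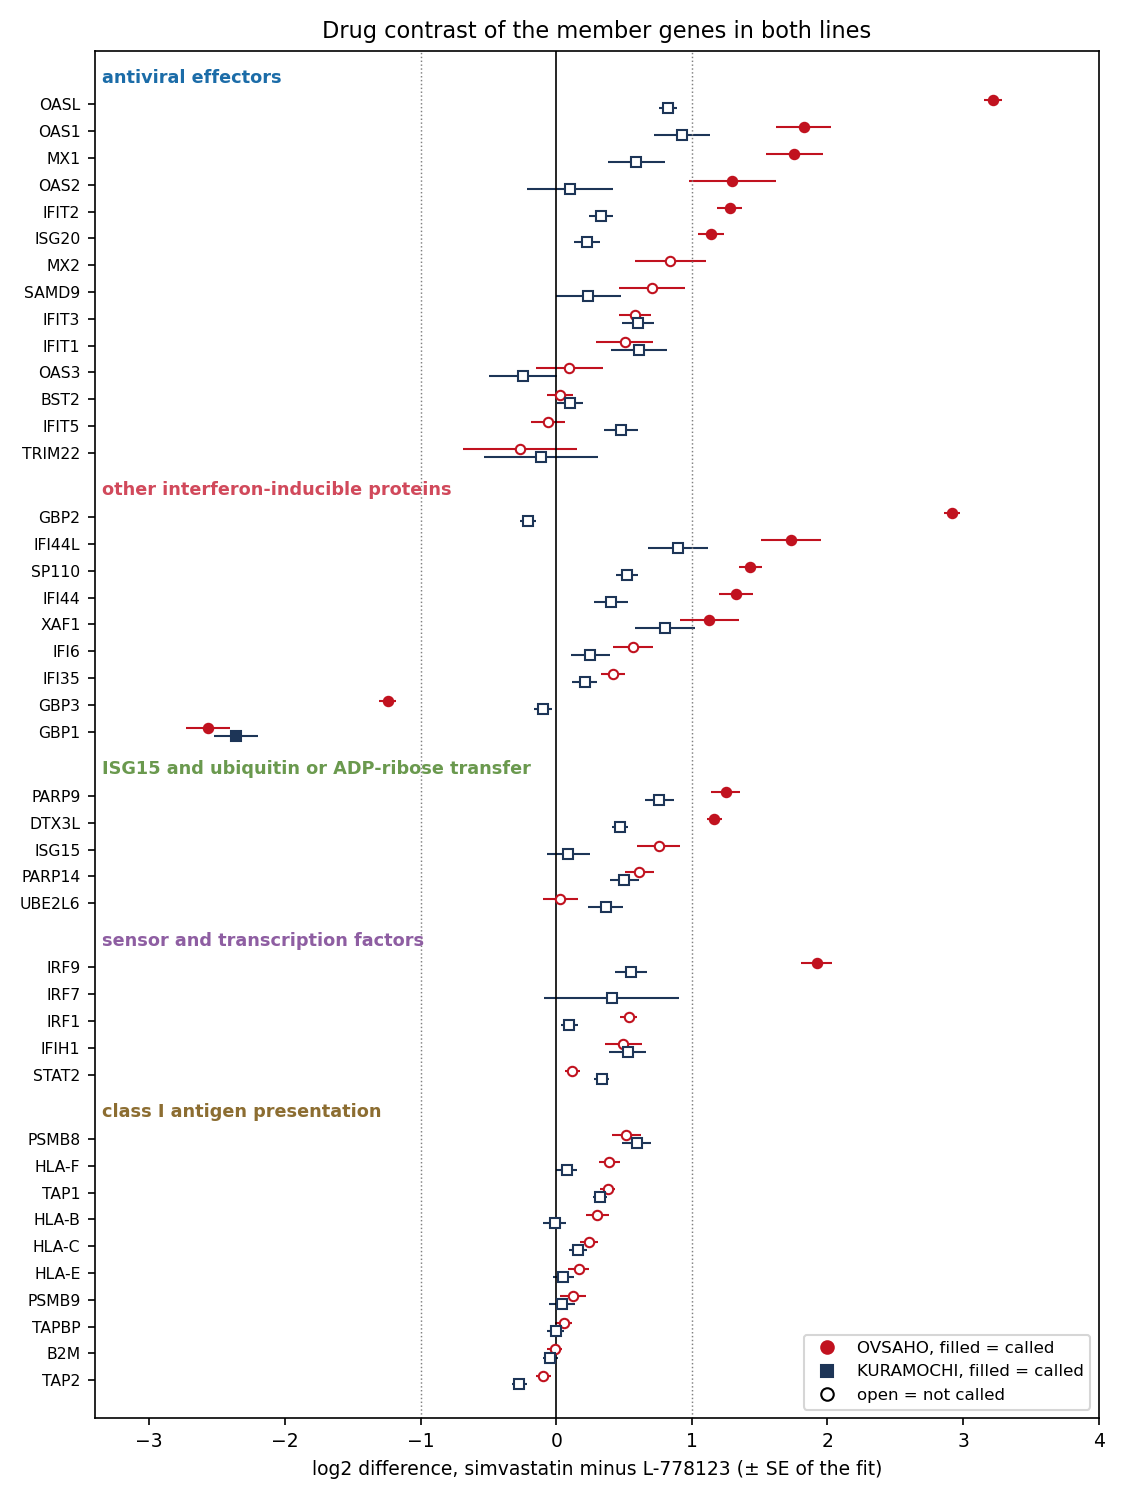
Log2 difference between simvastatin and L-778123 for each measured member, with the SE of the fit, in OVSAHO (circles) and KURAMOCHI (squares). Dotted lines mark a 2-fold change. Filled symbols to the right of the dotted line are the 14 members called higher, all in OVSAHO, and those to the left are GBP1 in both lines and GBP3 in OVSAHO.

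Of the antiviral effectors, 6 of 14 were higher and 0 lower in OVSAHO, and 0 of 13 were called in KURAMOCHI. At an unadjusted p under 0.05 from limma 0 lay below 0 in either line and 7 above 0 in KURAMOCHI, and the analysis of variance of the methods called 5 higher and 0 lower in OVSAHO and 0 in KURAMOCHI. OASL, an oligoadenylate synthetase-like protein that enhances RNA sensing, stood at 1.63 and 1.64 in OVSAHO with simvastatin and at -1.55 and -1.62 with L-778123. In KURAMOCHI it stood at -0.28 and -0.17 with simvastatin and at -1.09 and -1.01 with L-778123. Both pairs were far apart, and OASL had the largest drug contrast of all members, a log2 difference of 3.22 ± 0.07 (SE, n = 2 per group; 9.32-fold, limma adjusted p = 1.28e-05) in OVSAHO against 0.83 ± 0.07 (limma adjusted p = 0.000839) in KURAMOCHI, where it was under the 2-fold threshold.

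OAS1, an oligoadenylate synthetase activated by double-stranded RNA, was at -1.15 and -0.65 with simvastatin and at -2.76 and -2.69 with L-778123 in OVSAHO. In KURAMOCHI the values were -0.32 and 0.11 against -0.99 and -1.07. The groups did not overlap in either line, and the difference was 1.82 ± 0.20 in OVSAHO (limma adjusted p = 0.00112) and 0.93 ± 0.20 in KURAMOCHI (limma adjusted p = 0.0207, not called). MX1, a dynamin-like GTPase that blocks viral replication, was at 3.12 and 3.54 against 1.47 and 1.69 in OVSAHO, and at 5.65 and 6.16 against 5.31 and 5.32 in KURAMOCHI. Simvastatin arrays were above L-778123 arrays in both lines, by 1.75 ± 0.21 in OVSAHO (limma adjusted p = 0.00144) and by 0.59 ± 0.21 in KURAMOCHI (limma adjusted p = 0.0845, not called).

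OAS2, a second oligoadenylate synthetase, was at -0.98 and -0.24 with simvastatin and at -2.12 and -1.70 with L-778123 in OVSAHO, a difference of 1.30 ± 0.32 (limma adjusted p = 0.0192). In KURAMOCHI its values overlapped, at -1.28 and -0.74 against -0.93 and -1.29. Its 3 probes did not move alike, since both dimmer probes, for other transcripts, gave -0.10 and 0.24 in OVSAHO, neither of them called. Without OVSAHO simvastatin replicate 2 the difference was 0.93 (limma adjusted p = 0.0765), and without OVSAHO L-778123 replicate 1 it was 1.09 (limma adjusted p = 0.0938), so that the call of OAS2 rests on these arrays. IFIT2, which binds viral RNA, and ISG20, an exonuclease that degrades RNA, were the other effectors called, with log2 differences of 1.28 and 1.14 in OVSAHO against 0.33 and 0.22 in KURAMOCHI.

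IFIT1, which recognizes the cap of viral RNA, was at 2.86 and 3.30 with simvastatin and at 2.53 and 2.62 with L-778123 in OVSAHO. In KURAMOCHI it was at 4.10 and 4.60 against 3.83 and 3.65. The groups did not overlap, but the differences of 0.51 ± 0.21 and 0.61 ± 0.21 did not pass the threshold (limma adjusted p = 0.0957 and 0.0762). MX2, a relative of MX1, cleared background in both replicates in OVSAHO alone, and its difference of 0.84 stayed under 2-fold. The effectors IFIT3, IFIT5, OAS3, BST2 (tetherin), SAMD9 and TRIM22 lay between -0.27 and 0.71 in OVSAHO and between -0.25 and 0.60 in KURAMOCHI, with no call.

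Among the other interferon-inducible proteins, 5 of 9 measured were higher and 2 lower in OVSAHO, and 1 of 9 was lower in KURAMOCHI. GBP2, a guanylate-binding GTPase of host defence, was at 1.51 and 1.43 with simvastatin and at -1.46 and -1.44 with L-778123 in OVSAHO. In KURAMOCHI it was at 1.38 and 1.44 against 1.61 and 1.63. OVSAHO cells with L-778123 stood apart from the other 3 groups, which lay within a narrow range. The difference was 2.92 ± 0.06 in OVSAHO (7.55-fold, limma adjusted p = 1.28e-05) and -0.21 ± 0.06 in KURAMOCHI (limma adjusted p = 0.0418, under the 2-fold threshold).

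GBP1, a paralog of GBP2, moved the other way. It was at -3.50 and -3.05 with simvastatin and at -0.59 and -0.82 with L-778123 in OVSAHO, and at 1.36 and 1.42 against 3.80 and 3.70 in KURAMOCHI. It was the only member called in both lines, 5.92-fold lower with simvastatin in OVSAHO (log2 difference -2.57 ± 0.16, limma adjusted p = 0.000151) and 5.13-fold lower in KURAMOCHI (-2.36 ± 0.16, limma adjusted p = 0.000522). GBP3, another paralog, was at -0.89 and -0.83 against 0.39 and 0.37 in OVSAHO, and at 0.42 and 0.47 against 0.60 and 0.49 in KURAMOCHI. Its brightest probe fell in OVSAHO by 1.24 on the log2 scale (SE 0.06, limma adjusted p = 8.25e-05) and did not pass in KURAMOCHI (-0.10 ± 0.06, limma adjusted p = 0.292). A dimmer GBP3 probe was lower in both lines, at -1.11 and -1.68 (limma adjusted p = 0.00146 and 0.000799), so that its probes disagree on KURAMOCHI. The guanylate-binding proteins are related in sequence, and whether probes bind more than 1 of them was not tested.

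IFI44L, an interferon-induced protein that tempers antiviral signalling, was at -0.70 and -0.21 with simvastatin and at -2.27 and -2.10 with L-778123 in OVSAHO. In KURAMOCHI it was at 3.95 and 4.47 against 3.31 and 3.32. Simvastatin arrays were higher in both lines, by 1.73 ± 0.22 (limma adjusted p = 0.00181) in OVSAHO and 0.90 ± 0.22 (limma adjusted p = 0.0295, not called) in KURAMOCHI. IFI44, its neighbour on chromosome 1, was at 0.23 and 0.50 against -0.97 and -0.95 in OVSAHO, and at 3.72 and 4.01 against 3.46 and 3.46 in KURAMOCHI. Its difference was 1.33 ± 0.13 (limma adjusted p = 0.000638) and 0.40 ± 0.13 (limma adjusted p = 0.0608).

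SP110, a nuclear body protein, was at 1.35 and 1.36 against -0.05 and -0.11 in OVSAHO, and at 2.50 and 2.72 against 2.11 and 2.07 in KURAMOCHI. Its replicates lay close together, and the difference was 1.43 ± 0.08 (limma adjusted p = 0.000114) and 0.52 ± 0.08 (limma adjusted p = 0.00705, under 2-fold). XAF1, which opposes an inhibitor of apoptosis, differed by 1.13 in OVSAHO and 0.80 in KURAMOCHI. The OVSAHO call was lost without OVSAHO simvastatin replicate 2, at 0.84, with normexp background correction, at 0.94, and under the analysis of variance of the methods (adjusted p = 0.105). A dimmer XAF1 probe gave 1.03 in OVSAHO (limma adjusted p = 0.00237), above 2-fold, and 0.90 in KURAMOCHI (limma adjusted p = 0.00685), under 2-fold. IFI6 and IFI35 had differences of 0.57 and 0.42 in OVSAHO and of 0.25 and 0.21 in KURAMOCHI, with no call.

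ISG15, the ubiquitin-like protein that is attached to other proteins after interferon, was at 4.47 and 4.67 with simvastatin and at 3.82 and 3.81 with L-778123 in OVSAHO. In KURAMOCHI it was at 6.81 and 7.28 against 6.96 and 6.95, where the groups overlapped. The difference of 0.76 ± 0.16 in OVSAHO (limma adjusted p = 0.0112) stayed under 2-fold, and that in KURAMOCHI was 0.09 ± 0.16. Of the 5 genes of ISG15 and of ubiquitin or ADP-ribose transfer, PARP9 and DTX3L, which work as a complex and are transcribed from a shared promoter region, were higher in OVSAHO, by 1.25 and 1.17. In KURAMOCHI they differed by 0.76 and 0.47. A dimmer PARP9 probe gave 0.88 in OVSAHO, under 2-fold, and 0.41 in KURAMOCHI. UBE2L6, the conjugating enzyme of ISG15, and PARP14 had differences of 0.03 and 0.61 in OVSAHO, neither of them called.

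Of the sensor and transcription factors, 1 of 4 measured was higher in OVSAHO and 0 of 5 were called in KURAMOCHI, where 3 lay above 0 at an unadjusted p under 0.05 from limma and the analysis of variance called 0. IRF9, the DNA-binding part of the STAT complex, was at 2.44 and 2.51 with simvastatin and at 0.54 and 0.58 with L-778123 in OVSAHO. In KURAMOCHI it was at 3.34 and 3.64 against 2.85 and 3.03. The difference was 1.92 ± 0.11 in OVSAHO (3.78-fold, limma adjusted p = 0.000129) and 0.55 ± 0.11 in KURAMOCHI (limma adjusted p = 0.0174, under 2-fold). STAT2, its partner in that complex, was at 5.81 and 5.85 against 5.70 and 5.72 in OVSAHO, and at 4.91 and 4.97 against 4.61 and 4.60 in KURAMOCHI, differences of 0.12 ± 0.05 and 0.34 ± 0.05.

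IRF1, the factor most closely tied to interferon gamma, was at 1.67 and 1.66 against 1.11 and 1.15 in OVSAHO, and at -0.12 and -0.05 against -0.13 and -0.23 in KURAMOCHI. Its difference of 0.53 ± 0.06 in OVSAHO passed the test but not the 2-fold threshold (limma adjusted p = 0.00116), and that of 0.10 ± 0.06 in KURAMOCHI did not pass (limma adjusted p = 0.274). IFIH1, the sensor of long double-stranded RNA also known as MDA5, differed by 0.50 and 0.53, with no call. IRF7, the factor that amplifies interferon production, was not well above background on any OVSAHO array, and in KURAMOCHI it differed by 0.41.

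The 10 genes of class I antigen presentation showed no call in either line. At an unadjusted p under 0.05 from limma, 5 lay above 0 in OVSAHO, and 2 above and 1 below 0 in KURAMOCHI, 0 of them by 2-fold, and the two-way analysis of variance of the methods called 0 in each line. On the brightest probes their median log2 difference was 0.20 in OVSAHO, with a range from -0.09 to 0.52, and 0.05 in KURAMOCHI, with a range from -0.27 to 0.59. A dimmer HLA-E probe gave 0.67 in OVSAHO (limma adjusted p = 0.000709) and 0.31 in KURAMOCHI (limma adjusted p = 0.0177), both under 2-fold. The brightest HLA-E probe gave 0.17 and 0.05. B2M, the invariant light chain, was at 6.34 and 6.36 with simvastatin and at 6.40 and 6.32 with L-778123 in OVSAHO, and at 7.49 and 7.53 against 7.56 and 7.55 in KURAMOCHI. It differed between drugs by -0.01 ± 0.06 and -0.04 ± 0.06.

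HLA-B, a classical heavy chain, was at 5.68 and 5.68 against 5.31 and 5.45 in OVSAHO, and at 6.57 and 6.75 against 6.68 and 6.67 in KURAMOCHI. HLA-C, another heavy chain, was at 7.38 and 7.39 against 7.16 and 7.13 in OVSAHO, and at 6.75 and 6.69 against 6.63 and 6.49 in KURAMOCHI. Simvastatin arrays were above L-778123 arrays in OVSAHO for both genes, by 0.30 ± 0.08 and 0.24 ± 0.07 (limma adjusted p = 0.0296 and 0.0274), well under 2-fold, and HLA-B overlapped between drugs in KURAMOCHI. The HLA genes are near-identical in sequence and vary between people, so that a probe may bind more than 1 of them, which was not tested.

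TAP1, which pairs with TAP2 as the peptide transporter, was at 4.11 and 4.13 against 3.74 and 3.73 in OVSAHO, and at 2.93 and 3.00 against 2.64 and 2.64 in KURAMOCHI. It was higher with simvastatin in both lines, by 0.38 ± 0.05 (limma adjusted p = 0.00255) and 0.32 ± 0.05 (limma adjusted p = 0.00791), both under 2-fold. PSMB9, a subunit of the immunoproteasome, was at 4.27 and 4.37 against 4.17 and 4.22 in OVSAHO, and at 1.98 and 2.20 against 2.11 and 1.98 in KURAMOCHI. It did not differ beyond its spread, by 0.12 ± 0.10 and 0.04 ± 0.10, whereas PSMB8, the other immunoproteasome subunit listed, differed by 0.52 and 0.59 (limma adjusted p = 0.0110 and 0.0111, under 2-fold).

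**Figure D2:**
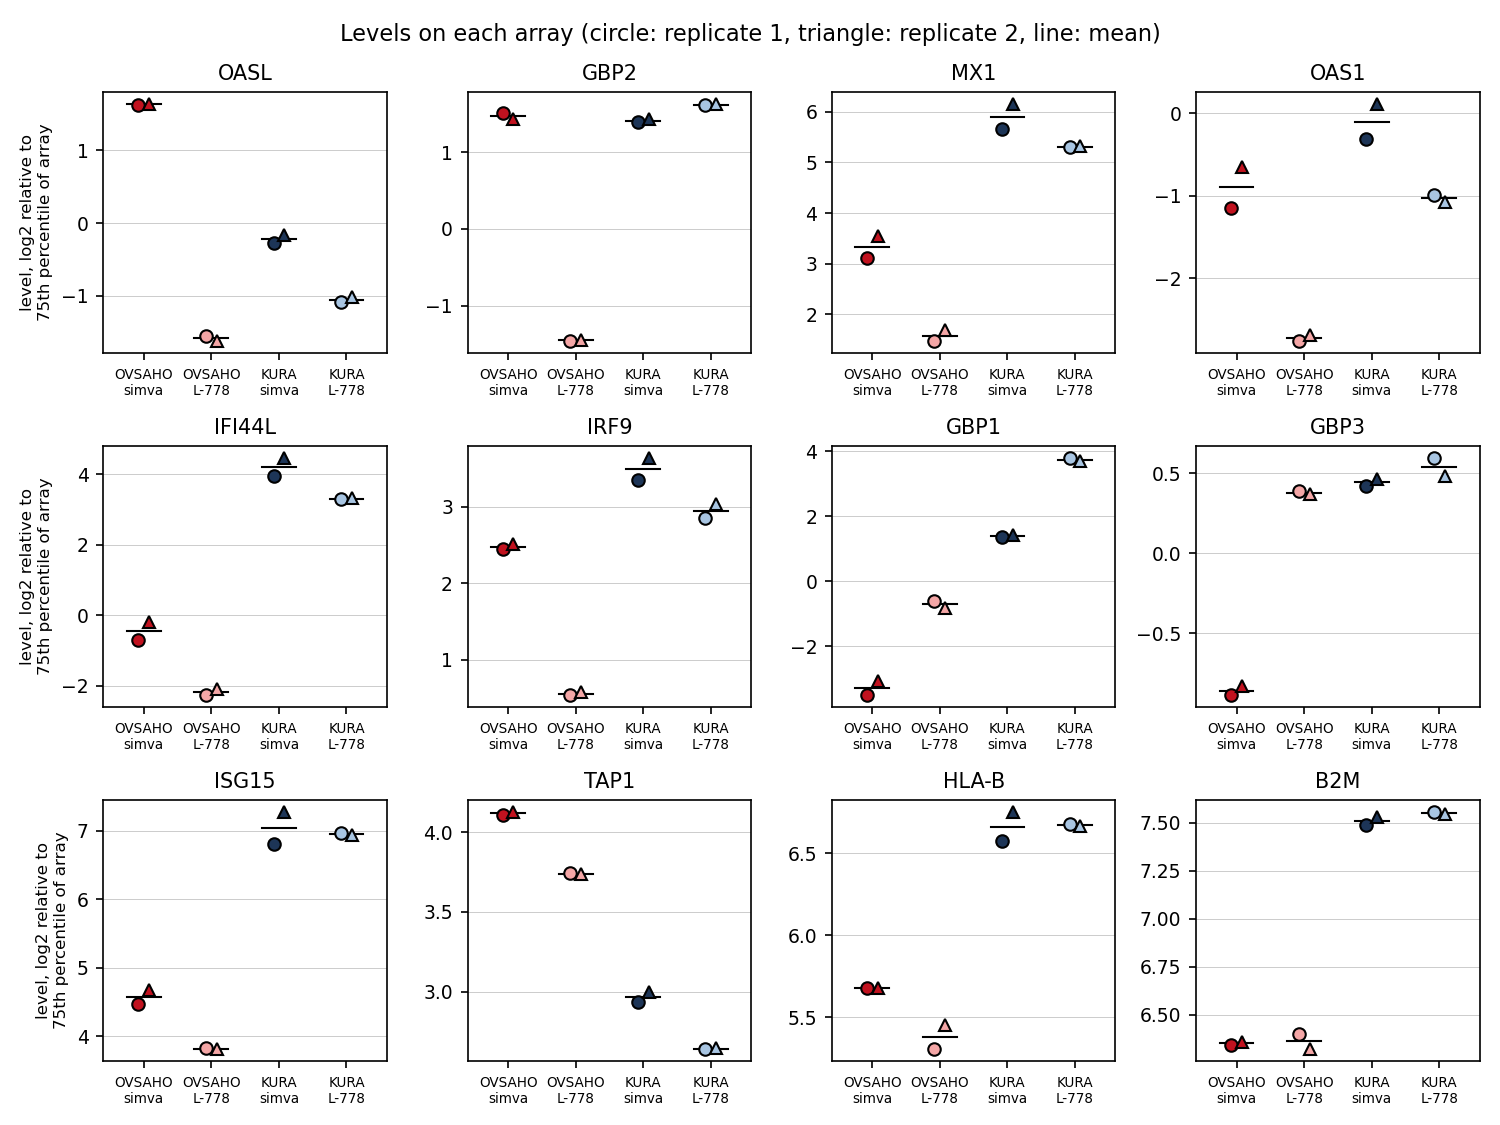
Level of 12 members on each of the 8 arrays, log2 relative to the 75th percentile of the array, in OVSAHO (red) and KURAMOCHI (blue, KURA) with simvastatin (simva, dark) or L-778123 (L-778, light). The axis range differs between genes. OASL, GBP2, IRF9 and MX1 separate by drug more widely in OVSAHO than in KURAMOCHI, GBP1 is lower with simvastatin in both lines, and HLA-B and B2M separate mainly by line.

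The difference of the drug contrasts, OVSAHO minus KURAMOCHI, was tested in the same fit, and it uses the same arrays as both contrasts. Of 41 members measured in both lines, 4 had a larger contrast in OVSAHO and 1 a smaller one by the threshold, where 3.58% of 15154 genes had a larger and 2.84% a smaller one. With no fold threshold these were 10 and 1 members, where 13.7% and 14.6% of all genes were. GBP2 had the largest difference, 3.12 ± 0.08 on the log2 scale (limma adjusted p = 0.000141), followed by OASL at 2.39 ± 0.10 (limma adjusted p = 0.000246) and IRF9 at 1.37 ± 0.16 (limma adjusted p = 0.00415). These 3 genes were called under all alternatives that were run.

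MX1 differed by 1.16 ± 0.30 (limma adjusted p = 0.0420), but this call was lost on leaving out any 1 of 6 arrays, those other than OVSAHO simvastatin replicate 1 and KURAMOCHI simvastatin replicate 2, with values from 0.91 to 1.27 and limma adjusted p from 0.0746 to 0.117. The smaller contrast was that of GBP3, -1.14 ± 0.09 (limma adjusted p = 0.00119), and its dimmer probe gave 0.57 (limma adjusted p = 0.0867), the opposite sign. Of the 14 members higher in OVSAHO, another 5 passed the test of the difference but stayed under 2-fold, namely IFIT2 at 0.95, ISG20 and IFI44 at 0.92, SP110 at 0.91 and DTX3L at 0.70 (limma adjusted p from 0.00395 to 0.0185). The remaining 5, OAS1, OAS2, IFI44L, PARP9 and XAF1, differed by 0.33 to 1.20 and did not pass (limma adjusted p from 0.0721 to 0.494), so that a larger contrast in OVSAHO is not shown for these. Probes disagreed for PARP9, whose dimmer probe passed the test at 0.46, under 2-fold (limma adjusted p = 0.0232). Dimmer probes of OAS2 and XAF1 did not pass. The dimmer IFIT2 probe gave 1.07 (limma adjusted p = 0.0219), above 2-fold. GBP1 differed by -0.21 ± 0.23 (limma adjusted p = 0.557). Of the class I genes, 0 of 10 were called, with a median of 0.08. At an unadjusted p under 0.05 from limma 2 of them lay above 0, and the analysis of variance called 0. A dimmer HLA-E probe passed the test of the difference at 0.35, under 2-fold (limma adjusted p = 0.0455), against 0.11 on the brightest probe.

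**Figure D3:**
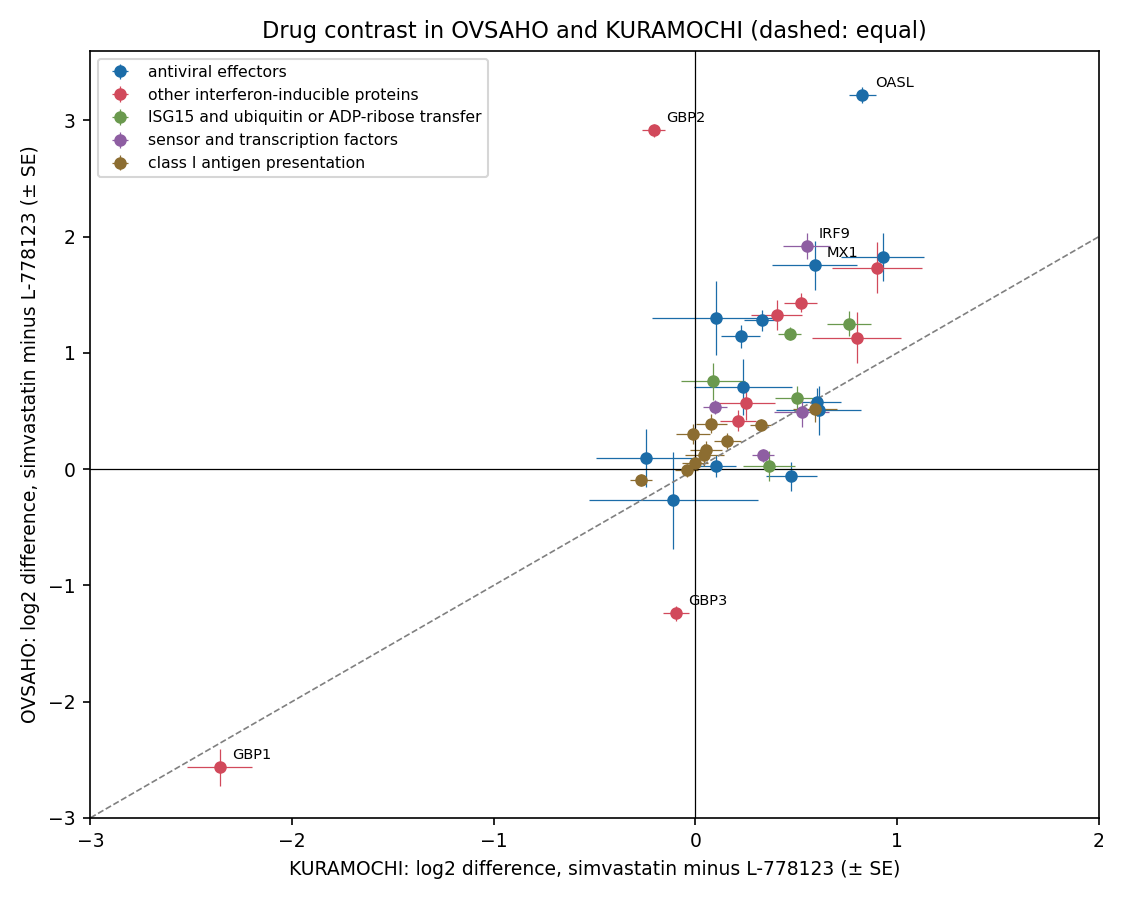
Drug contrast of the 41 members measured in both lines, with KURAMOCHI on the horizontal and OVSAHO on the vertical axis, both as log2 differences with the SE of the fit. The dashed line marks equal contrasts, and GBP1 and the 5 genes called for the difference are named. GBP2 and OASL lie farthest above the line, GBP3 lies below it and GBP1 near it.

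The members did not lie equally on both replicates of a group. In KURAMOCHI cells with simvastatin, all 32 members outside class I that were well above background in both replicates were higher on replicate 2 than on replicate 1, with a median of 0.29 on the log2 scale, while the median of all genes was -0.0060. In OVSAHO cells with simvastatin 27 of 31 such members were higher on replicate 2, with a median of 0.12, against 0.0206 for all genes. Of all genes, 7403 of 15491 were higher on replicate 2 in KURAMOCHI with simvastatin and 9170 of 15760 in OVSAHO with simvastatin. With L-778123 the counts of members outside class I were 17 of 32 in OVSAHO and 14 of 32 in KURAMOCHI, with medians of 0.0097 and -0.0135. Those of all genes with L-778123 were 8026 of 15999 and 6590 of 15564. Class I genes had medians from -0.03 to 0.06 in the 4 groups.

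The contrast in KURAMOCHI changed with the array left out. Without KURAMOCHI simvastatin replicate 1, 2 members, IFI44L and OAS1, were called higher in KURAMOCHI and the median of the members was 0.38, and without replicate 2 it was 0.18 with 0 called higher. The number of members with a larger contrast in OVSAHO was 3 without KURAMOCHI simvastatin replicate 1 and 8 without replicate 2, the 4 added being IFI44, IFIT2, ISG20 and SP110. In OVSAHO, 12 to 14 members were called higher whichever array was left out.

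**Figure D4:**
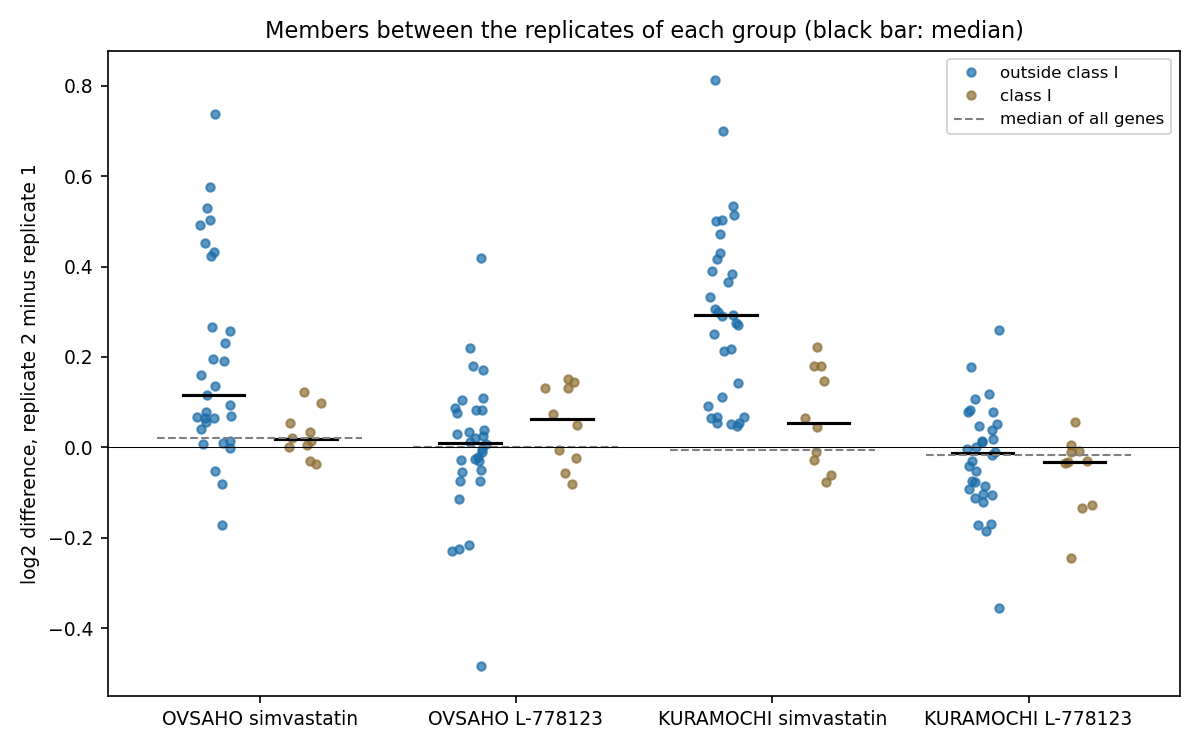
Log2 difference between replicate 2 and replicate 1 of each group for the members outside class I (blue) and of class I (brown), with black bars at their medians and a dashed line at the median of all genes. In KURAMOCHI cells with simvastatin all 32 blue points lie above 0, and with L-778123 the points lie around 0 in both lines.

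Between lines, averaged over both drugs, 18 of 43 members were lower in OVSAHO than in KURAMOCHI and 5 were higher, where 16.4% of 16955 genes were lower and 18.3% higher. The median was -0.50, against 0.0275 for all genes. Of the interferon-inducible proteins, 7 of 9 were lower in OVSAHO. IFI6, which inhibits apoptosis and viral replication, was 36.5-fold higher in KURAMOCHI (log2 difference -5.19 ± 0.10, limma adjusted p = 2.90e-07), with values of 1.62 to 2.32 in OVSAHO and 6.95 to 7.46 in KURAMOCHI. IFI44L was 33.8-fold, GBP1 23.6-fold, IFI44 15.5-fold, MX1 8.91-fold and ISG15 6.99-fold higher in KURAMOCHI, and the arrays of the lines did not overlap for these genes.

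IRF7 had the widest gap of the members. It stood at 3.52 to 4.15 on the KURAMOCHI arrays and was not well above background on any OVSAHO array. This puts KURAMOCHI at least 380.3-fold higher, where the dimmest probe to clear background on an OVSAHO array stands in for its level there. The limma adjusted p of 1.78e-06 belongs to the fitted difference of -10.34, which uses OVSAHO signals not well above background. IRF9 was 3.25-fold higher in KURAMOCHI, while IRF1 was 2.89-fold higher in OVSAHO (log2 difference 1.53 ± 0.04, limma adjusted p = 8.79e-07). STAT2 was also higher in OVSAHO, by 1.00, which before rounding is under the 2-fold threshold. The average over drugs hides a gap that varied with the drug where the drug contrasts differed between lines. IRF9 had means of 2.48 in OVSAHO and 3.49 in KURAMOCHI with simvastatin, and of 0.56 and 2.94 with L-778123. GBP2, called lower in OVSAHO on average, had means of 1.47 and 1.41 with simvastatin, and of -1.45 and 1.62 with L-778123. ISG20 and MX2 were the effectors higher in OVSAHO, by 2.14 and 1.70, although MX2 was well above background on only 1 array of each KURAMOCHI group. The value of MX2 is therefore not exact, its call was lost with normexp (0.61), and it was not tested where a probe had to clear background on all arrays.

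Class I genes were split between the lines, with 4 of 10 lower and 2 of 10 higher in OVSAHO. The light chain B2M was 2.26-fold, HLA-B 2.20-fold, HLA-F 2.73-fold and TAP2 2.22-fold higher in KURAMOCHI. PSMB9 was 4.57-fold and TAP1 2.18-fold higher in OVSAHO. PSMB9 and TAP1 lie next to each other in the MHC region of chromosome 6, and TAP2 and PSMB8, in the same cluster, differed by -1.15 and -0.23. A dimmer TAP2 probe gave -0.22, and under the median over probes TAP2 was no longer called. Dimmer probes of HLA-B and HLA-F gave -0.99, under 2-fold, and -1.65. Whether HLA probes bind alike in both lines was not tested.

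**Figure D5:**
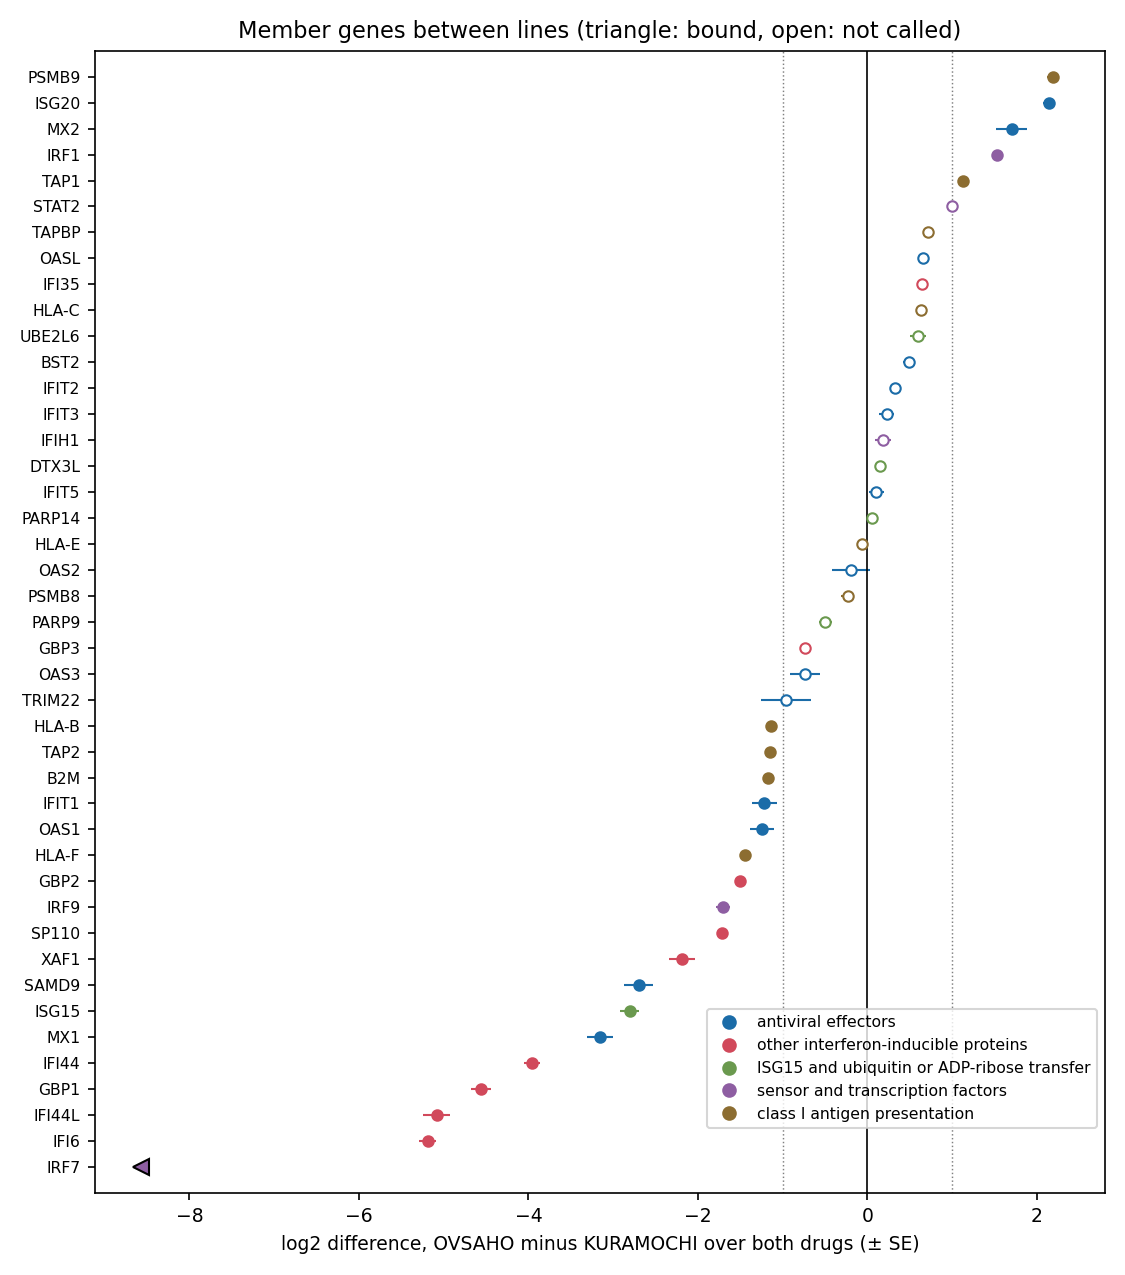
Log2 difference between OVSAHO and KURAMOCHI, averaged over both drugs, for the 43 measured members in order of size, with the SE of the fit and the color of each role. Filled points are called, and the triangle for IRF7 marks a bound. IRF7, IFI6 and IFI44L hold the lower end, and PSMB9 and ISG20 the upper end.

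The other genes of the pathway were counted by lists. Beside the counts for a drug in these lists stand the shares of all genes. In OVSAHO 5.68% were higher and 5.88% lower, and in KURAMOCHI 2.38% were higher and 2.97% lower. Of 9 interferon ligands with a probe, 7 did not clear background in both replicates of any group, IFNB1 and IFNG among them, and neither of the other two was called for a drug. IFNL1 was well above background on 1 array alone, KURAMOCHI simvastatin replicate 1, at -2.09, the array on which the members outside class I were lower than on its replicate. Whether these values are related was not tested. Of 17 receptors, kinases and inhibitors, 1 was lower in OVSAHO, which is near the share of all genes. This was IFNGR1, the ligand-binding chain of the interferon gamma receptor, at 2.69 and 2.74 with simvastatin against 4.13 and 4.05 with L-778123 (log2 difference -1.37 ± 0.07, limma adjusted p = 7.48e-05). In KURAMOCHI it differed by 0.22, and the difference between lines was called (-1.59, limma adjusted p = 0.000621). USP18, which removes ISG15 and dampens receptor signalling, was higher in KURAMOCHI by 1.09 (limma adjusted p = 0.000820) and differed by 0.75 in OVSAHO, under 2-fold.

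Of the nucleic acid sensors and their kinases, 2 of 13 measured in OVSAHO were higher and 2 lower. IRF5, a factor downstream of Toll-like receptors, was 2.14-fold higher, and IKBKE, a kinase of IRF proteins, and TLR3, an endosomal sensor of double-stranded RNA, fell by 1.16 and 1.01 on the log2 scale. In KURAMOCHI 1 of 15 was lower, ZBP1, a sensor of Z-form nucleic acid, at least 1.66-fold (limma adjusted p = 0.0492), since it was well above background with L-778123 alone. That bound is under 2-fold, so the call rests on values below background with simvastatin, and the analysis of variance called 0 genes of this list lower in KURAMOCHI. Of 37 other interferon-stimulated genes, 5 were higher and 0 lower in OVSAHO, and 0 were called in KURAMOCHI. At an unadjusted p under 0.05 from limma 7 lay below 0 in OVSAHO, and 14 above and 2 below 0 in KURAMOCHI, where the analysis of variance also called 0. Among the 5 higher in OVSAHO were RSAD2 (viperin) at 2.18, GBP4 at 1.46 and RTP4, a chaperone of receptor transport, at 1.33. All 3 were also called for the difference between lines, by 1.60, 1.22 and 1.17. The median of this list was 0.40 in OVSAHO and 0.17 in KURAMOCHI.

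Of 16 other class I genes, 0 were called for a drug in either line by limma or the analysis of variance. At an unadjusted p under 0.05 from limma 3 lay above and 6 below 0 in OVSAHO, and 3 above and 3 below 0 in KURAMOCHI. Of 11 class II genes measured in OVSAHO, 4 were higher with simvastatin, and the analysis of variance of the methods called 2. CIITA, the master regulator of class II transcription, was at -2.61 and -2.95 with simvastatin and not well above background with L-778123, at least 4.41-fold higher. HLA-DRA, the class II alpha chain, was likewise at least 3.06-fold higher, and HLA-DPB1 differed by 1.46 (limma adjusted p = 0.0482). Dimmer HLA-DPB1 probes gave 1.76, 2.21 and 0.79 in OVSAHO (limma adjusted p = 0.00034, 0.00812 and 0.0544), so that its probes vary in size. For CIITA and HLA-DRA the limma adjusted p of 0.000185 and 0.000535 belong to the fitted differences of 2.46 and 1.70. These use L-778123 signals not well above background. HLA-DRA is also an immune cell marker. The summed level of the immune marker list in OVSAHO was 2.30 to 2.32 times the 75th percentile with simvastatin and 1.85 to 1.92 times with L-778123. Of 6 markers of this list measured in OVSAHO, 4 lay above 0 and 2 below, with a median log2 difference of 0.25. At a limma adjusted p under 0.05, 2 lay above 0 and 1 of them, HLA-DRA, was called. PTPRC was among those below 0, at -0.06. The part of other cells in these values was not tested. In KURAMOCHI HLA-DMB, which helps load peptides on class II, was 2.15-fold higher, and CIITA, HLA-DRA and HLA-DPB1 were not well above background.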

How the data were processed

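RNA of OVSAHO and KURAMOCHI cells was labelled in one color and hybridized to 8 SurePrint G3 Human arrays on 1 slide. The authors extracted the images with Feature Extraction 11.5.1.1 and deposited the processed signal of each spot as an intensity corrected for background and not normalized between arrays, with median intensities and flags. They also deposited a value table, which correlated with the log2 signal at 0.9991 or more, holds quantile-normalized linear intensity by its values and was used as an alternative. The members and lists were chosen with earlier results of these data known. Control and outlier spots (58 to 99 per array) were left out, spots of a probe were averaged, and each array's 75th percentile was subtracted from its log2 signals. Of 58162 probes used, 33753 cleared background in both replicates of 1 or more groups and were tested, and 39 others had no usable spot on some array. RefSeq accessions named 24768 of 50069 identifiers. A GRCh38.p14 table gave names and promoters, and no coordinates of the array design were used.

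A gene was taken from its brightest probe. Means of 4 groups were fitted to all 8 arrays with limma 3.58.1 (R 4.3.3), with Benjamini-Hochberg adjustment over all tested probes, and calls needed a 2-fold difference and an adjusted p under 0.05. A gene counted in a comparison where it cleared background in both replicates of a group in it, and for the difference between lines, in each line. A bound compared the brighter group's mean with, on each array of the dimmer one, the larger of the probe's own signal and the dimmest signal to clear background. The fit was tested on simulated data. Values on every array are given for members called for a drug or for the difference between lines, at most 10 per comparison by size, and for HLA-B, HLA-C, B2M, TAP1, PSMB9, IRF1, IRF9, STAT2, ISG15, IFIT1, MX1 and OAS1. Genes outside the members are named where called, at most 4 per list by size (some are not reported here), with markers and the ligands IFNB1, IFNG and IFNL1, which were chosen after their values were seen. The number of arrays limits the precision. Alternatives changed the filter, background correction, normalization, probe choice, fold threshold, test, floor and block, or left out 1 array.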

Additional observations from a re-analysis of the deposited data

Results flagged for a closer look

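For 5 members the drug contrast differed between the lines by 2-fold or more and by the test of the difference itself, with limma and adjustment over all probes. GBP2 was higher with simvastatin in OVSAHO by 2.92 and differed by -0.21 in KURAMOCHI, a difference of 3.12 on the log2 scale. OASL differed between lines by 2.39, IRF9 by 1.37 and MX1 by 1.16, with simvastatin arrays above L-778123 arrays in both lines. The call of MX1 was lost on leaving out most of the single arrays. GBP3 differed by -1.14 on its brightest probe and by 0.57 on a dimmer probe. No cause of these differences was tested.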

How the results depend on the processing

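Of the calls, 11 of the 14 members higher and 1 of the 2 lower in OVSAHO, the 1 lower in KURAMOCHI and 3 of the 4 with a larger contrast in OVSAHO were called under all alternatives run. The slide could not be used as a block, since all arrays lay on 1 slide. Over all tested probes, deviations from the group means correlated at only 0.000848 to 0.0555 between groups. The members outside class I lay mostly higher on replicate 2 in both simvastatin groups, and whether they pair by replicate number was not tested. The fit with replicate number as a block called the same members. These were 14 higher and 2 lower in OVSAHO, and 0 and 1 in KURAMOCHI. They were 4 and 1 for the difference, and 5 and 18 between lines. With normexp background correction 1 member was lower in OVSAHO, 0 had a smaller contrast there and the OVSAHO median was 0.44. With probes of a gene summarised by their median, 0 had a smaller contrast in OVSAHO and the median between lines was -0.69, and with probes well above background on all arrays that median was -0.36. With a fold threshold of 1.5, 7 members were higher in KURAMOCHI, 9 had a larger contrast in OVSAHO and 11 were higher in OVSAHO than KURAMOCHI. With no fold threshold, 27 were higher in OVSAHO, 16 were higher and 3 lower in KURAMOCHI, 10 had a larger contrast in OVSAHO and 15 were higher in OVSAHO than KURAMOCHI. Shares of all genes were not counted at the fold threshold of 1.5, nor between lines with no fold threshold. Leaving out 1 array at a time gave 12 to 14 higher and 2 lower in OVSAHO, 0 to 2 higher and 1 lower in KURAMOCHI, 3 to 8 larger and 1 smaller for the difference, and 5 to 6 higher and 18 to 19 lower between lines, with medians of 0.47 to 0.55, 0.18 to 0.38, 0.14 to 0.40 and -0.57 to -0.42. The call of MX1 for the difference was lost with no filter, with quantile normalization, in the authors' table and under the methods' analysis of variance, and that of GBP3 in OVSAHO with normexp (-0.96). For these changes the cause was not tested.

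The sign turned in 22 values of single members, in 21 of them without passing the test. GBP1 had a difference of contrasts between lines of 0.88 with normexp (limma adjusted p = 0.000504, under 2-fold). B2M in OVSAHO was 0.0069 with quantile normalization, 0.0060 with the 75th percentile over bright probes and 0.0022 in the authors' table. HLA-B in KURAMOCHI was 0.0888 with quantile normalization, 0.0942 in the authors' table and 0.0616 with the median over probes, and HLA-C for the difference of contrasts was -0.0815 and -0.0877 in the first pair of these. OAS2 for that difference was -0.33 with the median over probes. With 1 array left out, values of B2M in OVSAHO ranged from -0.0507 to 0.0303 and of the difference from -0.0079 to 0.0730, of HLA-B in KURAMOCHI from -0.10 to 0.0798, of GBP1 for the difference from -0.43 to 0.0183 and of IFIT1 for the difference from -0.36 to 0.15. OAS2 in KURAMOCHI ranged from -0.17 to 0.37, ISG15 from -0.15 to 0.32 and PSMB9 from -0.0669 to 0.16, and the difference of PSMB9 from -0.0350 to 0.19. The 2 arrays per group limit what can be told apart, and IRF7, MX2 and TRIM22 lay near background on some arrays.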
